A study of Mus musculus with 6 samples.

Results

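Tumours grown in ovariectomized, vehicle-supplemented mice were compared with tumours grown in mice of the same transgenic cross for which the labels name no ovariectomy and no supplementation. All genes were compared over 4 of the 6 libraries of the series, 2 from ovariectomized vehicle hosts (vehicle tumours) and 2 from the other hosts (transgenic tumours). The remaining 2 libraries came from ovariectomized hosts given progesterone (progesterone tumours). They entered the filter on low counts, the scaling and the estimate of the spread between replicates, and their values are set beside a few genes. Every host, controls included, is labelled beta-hCG transgenic, as an offspring of a CB57BL/6 female (spelled as in the labels) crossed to an FVB male that carried the transgene, so no group lacks it. The implanted cells were LLC1 (ATCC CRL-1642), the Lewis lung carcinoma line, an established mouse tumour line, placed under the skin. The vehicle or progesterone was given over 28 days, and the tumours had grown for 30 days since implantation when they were taken. No source read here states the hosts' ages, the promoter that drives the transgene, or whether the 2 libraries of a group came from separate animals, and p-values therefore measure only the spread between these libraries. Because vehicle was given only after ovariectomy, removal of the ovaries and the vehicle course cannot be told apart in this comparison.

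The ovary makes oestradiol and progesterone, whose receptors are transcription factors of the nuclear receptor family. Human chorionic gonadotropin, a glycoprotein hormone of the placenta whose beta subunit gives it its specificity, binds the luteinizing hormone receptor of ovarian cells and stimulates them to make steroids. In a growing solid tumour the mRNA pool follows the division of the tumour cells, their oxygen and nutrient supply, the matrix around them, and the blood vessels and immune cells that enter. Tumour and host cells were both of mouse origin, so a gene count holds both, and fewer cells of a type and less RNA per cell cannot be told apart in these bulk libraries.

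The 4 libraries held between 19526775 and 30083925 counts, and 13632 of 19288 genes had enough counts to be tested. Levels are given as CPM, the count of a gene scaled to a common library total, for library 1 and then library 2 of a group, and where values are set against each other the transgenic libraries come first. Log2 fold changes are vehicle minus transgenic with their standard error, so that a positive value means a higher level in the vehicle tumours. Transgenic library 2 stood apart: across genes its Spearman correlation with the other 3 libraries was 0.968 to 0.971, against 0.985 to 0.987 among those 3. By edgeR's quasi-likelihood test no gene passed a Benjamini-Hochberg adjusted p of 0.05 (0% of the genes tested), and the smallest adjusted p was 0.587. At an unadjusted p under 0.05, 365 genes were higher (2.68%) and 394 lower (2.89%). DESeq2, run as an alternative on the same counts, called 30 genes higher (0.255%) and 36 lower (0.306%). For a single gene, an exact permutation test of 2 against 2 libraries cannot give a two-sided p below 0.3333. The genes below are therefore described by their values in each library. Both vehicle libraries lay above both transgenic libraries for 2437 genes (17.9%) and below both for 2412 genes (17.7%), and each gene group is read against these shares. The fitted fold change was positive for 6608 genes (48.5%) and negative for 7023 (51.5%).

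Of the genes with the smallest p, Scara5, Col23a1 and Mmp12 were higher in the vehicle tumours, and Rrm2, described with the replication genes, was lower. Scara5 (ENSMUSG00000022032, chr14:65666403-65764826, GRCm38), a scavenger receptor that takes up ferritin, had 1.44 and 0.421 CPM in the transgenic libraries against 16.2 and 17.4 CPM in the vehicle libraries. Col23a1, a transmembrane collagen (chr11:51289920-51583918), had 2.0 and 3.37 CPM in the transgenic tumours and 44.6 and 18.9 CPM in the vehicle tumours. Mmp12, the macrophage elastase (chr9:7344381-7369499), had 144 and 99.7 CPM in the transgenic and 568 and 458 CPM in the vehicle libraries. For all 3 genes the lowest vehicle library lay several-fold above the highest transgenic library. Their log2 fold changes were 4.15 ± 0.56, 3.57 ± 0.50 and 2.07 ± 0.29, each at an edgeR adjusted p of 0.587. The progesterone libraries had 11.98 and 15.1 CPM of Scara5 and 154 and 97.6 CPM of Mmp12.

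Several genes of cell surface signalling were also higher in both vehicle libraries, with adjusted p of 0.810 by edgeR. Sema4c, a transmembrane semaphorin, had 109.5 and 77.5 CPM in the transgenic libraries against 196 and 234 CPM in the vehicle libraries. Lrp5, a Wnt co-receptor, had 105 and 107 CPM in the transgenic tumours and 189 and 177 CPM in the vehicle tumours, with a log2 fold change of 0.79 ± 0.14. Itgb4, the beta subunit of the laminin receptor of hemidesmosomes, had 5.7 and 4.0 CPM in the transgenic and 17.3 and 13.6 CPM in the vehicle libraries. In each of these genes the groups did not overlap. Cblb, a ubiquitin ligase that limits receptor signalling, had a log2 fold change of 0.77 ± 0.15. Vav3, a guanine nucleotide exchange factor, had log2 fold changes of 1.21 ± 0.23, Psd3, an exchange factor for Arf GTPases, 0.86 ± 0.16, and Fam78b 1.26 ± 0.22. None of these 4 overlapped between the groups.

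**Figure D1:**
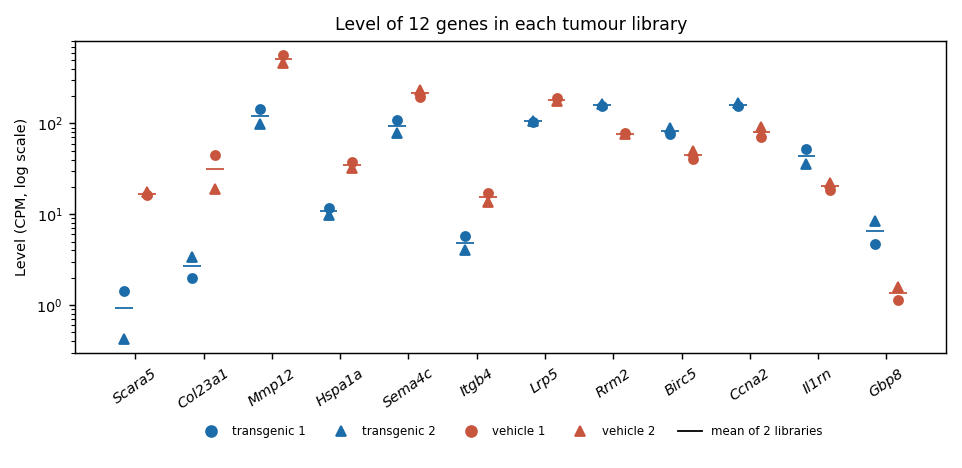
Level in CPM (log axis) of 12 genes in each of the 2 transgenic (blue) and 2 vehicle (red) libraries, with circles for library 1, triangles for library 2 and a short line for the mean of a group. The 7 genes on the left, Scara5 to Lrp5, were higher in both vehicle libraries, the 5 on the right, Rrm2 to Gbp8, were lower in both, and no gene passed the adjusted threshold by edgeR.

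Genes with large fold changes were often carried by 1 library. Mmp1a had 1.67 and 0.801 CPM in the transgenic libraries against 23.6 and 3.6 CPM in the vehicle libraries, so that vehicle library 1 lay far above vehicle library 2. Dlg2, a synaptic scaffold gene, had 2.67 and 2.15 CPM in the transgenic tumours and 22.9 and 4.72 CPM in the vehicle tumours, and Eln, the gene of elastin, 1.44 and 0.927 against 3.05 and 11.7 CPM. In these genes the groups did not overlap, but the 2 vehicle libraries differed several-fold. Tfap2c, a transcription factor of the AP-2 family, had 1.33 and 0.337 CPM in the transgenic and 3.81 and 6.2 CPM in the vehicle libraries and a log2 fold change of 2.56 ± 0.78. Prg4, which encodes the joint lubricant lubricin, had 6.48 and 0.632 CPM in the transgenic libraries against 27.2 and 14.3 CPM in the vehicle libraries, with a log2 fold change of 2.54 ± 1.10. On the lower side, Stmn4, a stathmin of neurons, had 0.815 and 13.99 CPM in the transgenic tumours and 0.412 and 0.742 CPM in the vehicle tumours. Nmnat2, an NAD-synthesizing enzyme of neurons, had 0.926 and 10.1 CPM in the transgenic and 0.823 and 0.53 CPM in the vehicle libraries, Lrp2, the endocytic receptor megalin, 5.89 and 60.1 against 5.8 and 3.18 CPM, and Spon1, a secreted matrix protein, 1.48 and 11.6 against 1.44 and 0.265 CPM. In all 4, transgenic library 2 was high and transgenic library 1 lay just above the vehicle libraries. Bmp7, a bone morphogenetic protein, Lama1, the alpha chain of laminin 1, and Greb1, an oestrogen receptor target gene, were also highest in transgenic library 2, at 0.778 and 18.2, 0.148 and 12.2 and 7.41 and 67.5 CPM in transgenic libraries 1 and 2. These 3 genes overlapped between the groups, with vehicle values of 1.2 and 0.424, 0.24 and 0.901 and 18.7 and 4.29 CPM.

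Receptors for ovarian and pituitary hormones were at low or similar levels in both groups. Of 22 listed genes 16 passed the filter on low counts, 11 with a positive and 5 with a negative fold change. Lhcgr, the receptor for luteinizing hormone and chorionic gonadotropin, had 0 counts in both transgenic libraries and 1 count in each vehicle library, and Pgr, the nuclear progesterone receptor, had 3 and 0 counts in the transgenic and 2 and 0 in the vehicle libraries. Both lay at or under 3 counts, the limit that a count of 0 allows, so no fold is given. Esr1, oestrogen receptor alpha, had 18.7 and 3.16 CPM in the transgenic libraries against 5.66 and 23.6 CPM in the vehicle libraries, with wide overlap. Esr2, oestrogen receptor beta, had 1.67 and 2.28 CPM in the transgenic tumours and 1.2 and 1.22 CPM in the vehicle tumours. Esr2 was lower in both vehicle libraries.

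Of the receptors outside the ovarian steroid group, 1 was higher and 1 lower without overlap. Nr3c1, the glucocorticoid receptor, had 128 and 157 CPM in the transgenic and 169.7 and 146 CPM in the vehicle libraries. Thra, the thyroid hormone receptor alpha, had 98.7 and 104 CPM in the transgenic libraries against 146 and 137 CPM in the vehicle libraries and was the 1 member higher without overlap, with a log2 fold change of 0.48 ± 0.14. The membrane progesterone-binding proteins Pgrmc1 and Pgrmc2 had log2 fold changes of 0.22 ± 0.23 and -0.03 ± 0.15, the membrane progestin receptors Paqr7 and Paqr8 0.18 ± 0.30 and -0.24 ± 0.37, and the membrane oestrogen receptor Gper1 0.70 ± 0.85. Ghr, the growth hormone receptor, had log2 fold changes of 0.45 ± 0.36, Igf1r and Insr, the receptors for insulin-like growth factor 1 and insulin, 0.05 ± 0.16 and 0.01 ± 0.19, and Thrb 0.23 ± 1.06. All of these overlapped between the groups. Vdr, the vitamin D receptor, had 2.0 and 2.61 CPM in the transgenic tumours and 1.65 and 1.38 CPM in the vehicle tumours, lower in both vehicle libraries. Nr3c2, the mineralocorticoid receptor, had a log2 fold change of -0.14 ± 0.92.

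Target genes of these receptors lay on both sides. Of 12 oestrogen receptor targets, 2 were higher and 2 lower without overlap. Igfbp4, a binding protein for insulin-like growth factors, had 1642 and 1000.2 CPM in the transgenic and 2126 and 2125 CPM in the vehicle libraries, and Ccnd1, cyclin D1, 426 and 469 against 351 and 403 CPM. Igfbp4 was higher and Ccnd1 lower in both vehicle libraries. Of 17 targets of the progesterone or the glucocorticoid receptor, 5 were higher and 1 lower without overlap. Ddit4, an mTOR inhibitor that hypoxia also induces, had 120.4 and 67.3 CPM in the transgenic libraries against 203 and 140.2 CPM in the vehicle libraries, and Tnfsf11, the osteoclast factor RANKL, 0.63 and 0.421 against 0.858 and 1.96 CPM. Fkbp5, Tsc22d3 and Per1, which glucocorticoids induce, overlapped between the groups, with log2 fold changes of -0.30 ± 0.22, -0.26 ± 0.30 and -0.34 ± 0.45. Among 16 genes of steroid synthesis, Hsd17b7, which acts in both oestrogen and cholesterol synthesis, had 28.9 and 18.7 CPM in the transgenic tumours and 65.6 and 29.6 CPM in the vehicle tumours, and Star, the cholesterol carrier of steroid-making cells, 4.82 and 3.25 against 14.3 and 4.82 CPM. In both of these, vehicle library 1 was the high one and vehicle library 2 was level with or just above the transgenic libraries.

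Genes of DNA replication were lower in the vehicle tumours across the list. Of 34 members that passed the filter, all 34 had a negative fold change. Without overlap 32 lay lower (94.1%, against 17.7% of all genes tested). The median log2 fold change was -0.63, against -0.01 over all genes tested. DESeq2 called 6 of them lower, against 0.306% of the genes it tested. Rrm2, a subunit of ribonucleotide reductase, which supplies deoxynucleotides, had 157 and 163 CPM in the transgenic and 77.7 and 76.5 CPM in the vehicle libraries. The 2 libraries of each group were almost equal, and the log2 fold change was -1.06 ± 0.14. Rrm1, the partner subunit, had 152 and 177 CPM in the transgenic libraries against 100.4 and 109 CPM in the vehicle libraries, with a log2 fold change of -0.65 ± 0.17.

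The other replication genes covered origin licensing, the fork and nucleotide supply. Mcm5, Mcm4 and Mcm10, of the helicase and its loading, had log2 fold changes of -0.91 ± 0.22, -0.63 ± 0.17 and -0.95 ± 0.22, and Cdc6, the licensing factor, -0.85 ± 0.22. Fen1, the flap endonuclease, had 81.6 and 79.6 CPM in the transgenic tumours and 44.1 and 50.03 CPM in the vehicle tumours, and Pclaf, a PCNA-binding factor, 109.9 and 123 against 44.7 and 65.1 CPM. The thymidylate enzymes Tyms and Tk1 had log2 fold changes of -0.78 ± 0.21 and -0.55 ± 0.14, and Chaf1a, a histone chaperone of the fork, -0.69 ± 0.19. In all of these the groups did not overlap. Cyclins E1 and E2 (Ccne1 and Ccne2), which drive entry into S phase, had log2 fold changes of -0.89 ± 0.25 and -0.87 ± 0.21. The 2 members that overlapped were E2f1, the transcription factor of this programme, at 66.7 and 53.9 CPM in the transgenic and 48.8 and 55.8 CPM in the vehicle libraries, and Pold1, a DNA polymerase subunit, at 59.9 and 80.9 against 59.2 and 66.4 CPM.

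Genes of G2 phase and mitosis were lower as well. Of 36 members 35 had a negative fold change, with a median of -0.84. Without overlap 34 lay lower (94.4%, against 17.7% of all genes tested). DESeq2 called 4 of them lower, against 0.306% of the genes it tested. Birc5, survivin, a part of the chromosomal passenger complex, had 77.2 and 88.97 CPM in the transgenic libraries against 40.6 and 49.5 CPM in the vehicle libraries. Its partner kinase Aurkb had 73.2 and 96.2 CPM in the transgenic tumours and 48.3 and 51.99 CPM in the vehicle tumours. Ccna2 and Ccnb1, cyclins A2 and B1, had log2 fold changes of -0.99 ± 0.19 and -0.77 ± 0.16. These 4 genes were lower in both vehicle libraries, and transgenic library 2 was the highest in each.

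Mki67, the proliferation marker Ki-67, had 303 and 515 CPM in the transgenic and 195 and 234 CPM in the vehicle libraries, and Top2a, the topoisomerase that untangles chromosomes, 412 and 646 against 265 and 325 CPM. Both were lower in both vehicle libraries. Spindle, checkpoint and division genes were lower without overlap too. Plk1 and Aurka, mitotic kinases, had log2 fold changes of -0.72 ± 0.19 and -0.89 ± 0.25, Mad2l1, of the spindle checkpoint, -0.74 ± 0.18, and Cdc20 and Ube2c, of the anaphase-promoting complex, -0.79 ± 0.20 and -0.82 ± 0.19. Tpx2 and Kif23, spindle proteins, had log2 fold changes of -0.82 ± 0.24 and -0.89 ± 0.25, and Prc1 and Racgap1, of the midzone and division ring, -0.86 ± 0.23 and -0.65 ± 0.16. Kif11, the kinesin that separates the spindle poles, was the exception with a positive fold change, at 5.22 and 3.03 CPM in the transgenic libraries against 7.1 and 1.91 CPM in the vehicle libraries. Besides Kif11, Nek2, a kinase of the centrosome, overlapped between the groups, at 0.63 and 1.94 CPM in the transgenic tumours and 0.446 and 0.795 CPM in the vehicle tumours.

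Outside both lists, Cks1b, a cyclin-dependent kinase subunit, had 131 and 122 CPM in the transgenic and 76.8 and 79.4 CPM in the vehicle libraries, Dnajc9, a histone chaperone, 46.3 and 53.4 against 27.6 and 27.9 CPM, and Cdca5, which holds sister chromatids together, 39.2 and 51.9 against 21.3 and 24.9 CPM, all lower in both vehicle libraries. Left-out libraries changed the size but not the direction: the mitosis median was -0.50 without transgenic library 2 and -1.11 without transgenic library 1, and the replication median -0.48 and -0.74. In the plot of members by library, the medians of both lists were positive in the transgenic and negative in the vehicle libraries, with transgenic library 2 the highest. The progesterone libraries had 90.6 and 83.3 CPM of Rrm2 and 79.01 and 96.3 CPM of Ccnb1.

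**Figure D2:**
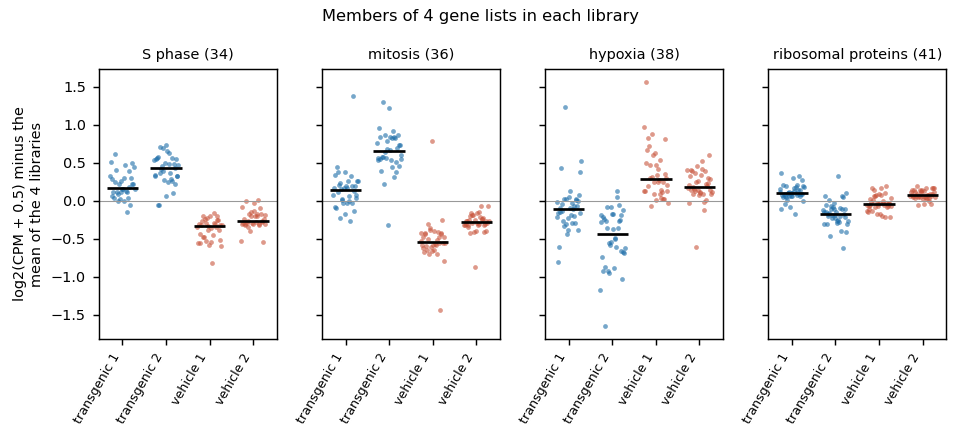
Each point is 1 gene in 1 library, as log2(CPM + 0.5) minus the mean of that gene over the 4 libraries, for the genes of DNA replication (34), mitosis (36), hypoxia and glycolysis (38) and cytosolic ribosomal proteins (41); black lines are medians. The replication medians were 0.17 and 0.43 in the transgenic and -0.33 and -0.27 in the vehicle libraries, the hypoxia medians -0.10 and -0.43 against 0.29 and 0.19, and the ribosomal medians stayed between -0.17 and 0.10.

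Genes of the hypoxia response and glycolysis were higher in the vehicle tumours. Low oxygen stabilizes HIF-1 alpha, which switches on glucose uptake, glycolytic enzymes and vascular signals. Of 38 members 35 had a positive fold change, with a median of 0.52. Without overlap 29 lay higher (76.3%, against 17.9% of all genes tested). DESeq2 called 5 of them higher, against 0.255% of the genes it tested. The median was 0.33 without transgenic library 2 and 0.71 without transgenic library 1. Slc2a1, the glucose transporter GLUT1, had 402 and 256 CPM in the transgenic libraries against 919 and 796 CPM in the vehicle libraries. Ero1l, an oxidase of the endoplasmic reticulum, had 278 and 184 CPM in the transgenic tumours and 643 and 449.5 CPM in the vehicle tumours, and Adm, the vasodilator adrenomedullin, 126 and 63.9 against 286 and 193 CPM. In these 3 genes both vehicle libraries were above the highest transgenic one, and transgenic library 2 was the lowest of all.

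Within the list, glycolytic enzymes and oxygen sensors differed in how far the groups lay apart. Hk2, hexokinase 2, had 225 and 180.0 CPM in the transgenic and 408 and 289 CPM in the vehicle libraries, and Gpi1, glucose phosphate isomerase, 762 and 645 against 1438 and 1122 CPM, and neither overlapped. Ldha, lactate dehydrogenase A, had 1648 and 1415 CPM in the transgenic libraries against 1608 and 1716 CPM in the vehicle libraries, and Pgk1, phosphoglycerate kinase, 903 and 745 against 902 and 1013 CPM, and both overlapped. Slc16a3, the lactate exporter MCT4, had 95.01 and 59.7 CPM in the transgenic tumours and 121 and 117 CPM in the vehicle tumours, and Pdk1, which keeps pyruvate out of the mitochondrion, 149 and 100.2 against 222 and 162 CPM, both without overlap. Egln3, a prolyl hydroxylase that senses oxygen, had 348 and 328 CPM in the transgenic and 582 and 465 CPM in the vehicle libraries, and Egln1 0.40 ± 0.15 on the log2 scale. Bnip3, of mitophagy, and Ndrg1, a stress-induced gene, had log2 fold changes of 1.03 ± 0.26 and 0.67 ± 0.31, and P4ha1, a collagen hydroxylase, 0.67 ± 0.18, all without overlap. The classic targets Vegfa and Car9 overlapped, at 209 and 99.5 CPM in the transgenic libraries against 186 and 172 CPM in the vehicle libraries for Vegfa and 24.2 and 5.35 against 32.2 and 23.6 CPM for Car9. The 3 members with a negative fold change were Gapdh, Pfkfb3 and Vldlr, and all 3 overlapped. Gapdh, which can lose reads to its many pseudogenes, had 182 and 39.8 CPM in the transgenic tumours and 96.02 and 50.4 CPM in the vehicle tumours.

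As examples of sequence from the 3 lists, the 250 bases before the RefSeq start (build GRCm38.p6) are printed for 2 members of each. These are the members with the smallest p that are in the sequence table. Capitals mark, on either strand, CCAAT (the CCAAT box) and TTTGAA or TTCGAA (the cell cycle homology region, CHR) in the replication and mitosis genes, and ACGTG or GCGTG (the core of the hypoxia response element) in the hypoxia genes. A CCAAT and a CHR match can share at most 1 letter, while matches to ACGTG on both strands overlap wherever CACGTG occurs. Capitals that read differently from these words are the same motif on the other strand. Ero1l is listed in RefSeq as Ero1a, and for Fen1, which has 2 windows, the one whose start is nearest the GENCODE gene start is shown. That Fen1 window still ends upstream of the GENCODE gene start, chr19:10204169, so it does not hold the bases next to that start.
Rrm2 (chr12:24708004-24708253, plus strand): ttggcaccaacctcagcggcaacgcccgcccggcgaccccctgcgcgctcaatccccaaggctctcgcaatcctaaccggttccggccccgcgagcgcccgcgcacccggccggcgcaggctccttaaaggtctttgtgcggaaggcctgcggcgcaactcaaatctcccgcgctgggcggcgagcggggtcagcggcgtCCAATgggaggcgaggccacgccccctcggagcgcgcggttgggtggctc
Fen1 (chr19:10204394-10204643, minus strand): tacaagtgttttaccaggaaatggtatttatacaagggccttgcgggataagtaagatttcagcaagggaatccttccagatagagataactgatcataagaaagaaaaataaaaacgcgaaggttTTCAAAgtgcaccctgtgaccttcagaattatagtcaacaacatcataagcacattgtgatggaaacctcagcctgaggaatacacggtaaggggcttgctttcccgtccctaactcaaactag
Birc5 (chr11:117848987-117849236, plus strand): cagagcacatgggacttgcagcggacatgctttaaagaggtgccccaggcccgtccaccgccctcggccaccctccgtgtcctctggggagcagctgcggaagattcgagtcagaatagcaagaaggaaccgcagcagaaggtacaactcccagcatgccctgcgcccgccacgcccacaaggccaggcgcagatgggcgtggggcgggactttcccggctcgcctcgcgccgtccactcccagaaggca
Ccnb1 (chr13:100786487-100786736, minus strand): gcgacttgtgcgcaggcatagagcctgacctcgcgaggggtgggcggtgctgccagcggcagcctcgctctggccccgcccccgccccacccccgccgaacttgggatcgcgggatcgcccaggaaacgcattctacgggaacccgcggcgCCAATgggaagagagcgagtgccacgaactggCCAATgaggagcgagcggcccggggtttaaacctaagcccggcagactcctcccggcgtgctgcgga
Slc2a1 (chr4:119108495-119108744, plus strand): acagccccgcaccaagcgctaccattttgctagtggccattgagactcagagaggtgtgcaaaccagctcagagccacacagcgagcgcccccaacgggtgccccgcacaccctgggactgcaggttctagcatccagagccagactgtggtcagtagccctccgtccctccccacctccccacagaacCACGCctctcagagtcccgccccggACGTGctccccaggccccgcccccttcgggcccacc
Ero1l (chr14:45318573-45318822, minus strand): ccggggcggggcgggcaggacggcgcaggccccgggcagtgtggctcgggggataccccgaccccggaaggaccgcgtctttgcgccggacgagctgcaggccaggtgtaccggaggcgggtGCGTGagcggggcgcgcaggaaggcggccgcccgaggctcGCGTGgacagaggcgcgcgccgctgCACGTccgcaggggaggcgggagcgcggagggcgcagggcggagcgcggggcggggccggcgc

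The Rrm2 window holds 1 CCAAT beginning 50 bases before the start, and the Ccnb1 window 2, at 99 and 67 bases before it. The Fen1 window holds a CHR match on the other strand at 124 bases and no CCAAT, and the Birc5 window holds neither motif. The Slc2a1 window holds 2 matches to the hypoxia core and the Ero1l window 3. Over the lists, CCAAT stood in 17 of 28 replication windows (60.7%) and 22 of 31 mitosis windows (71.0%), against 36.6% of the windows of 10717 tested genes and 33.9% of all 32851 windows in the table. CHR matches stood in 17.9% and 29.0% of the same windows, against 12.4% of tested genes and 17.1% of all windows. The hypoxia core stood in 27 of 35 hypoxia windows (77.1%), against 55.4% of tested genes and 38.6% of all windows, and in 53.6% of replication and 58.1% of mitosis windows. A match is a run of letters and not a measured binding site.

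Transcripts of the mitochondrial genome were lower in the vehicle tumours, while the median of nuclear genes of the same respiratory complexes lay near that over all genes. All 13 protein-coding genes of the mitochondrial genome passed the filter, 12 with a negative fold change and a median of -0.49. Without overlap 10 were lower (76.9%, against 17.7% of all genes tested). DESeq2 called 4 of them lower, against 0.306% of the genes it tested. The complex I genes mt-Nd1 and mt-Nd2 had 1916 and 1924 CPM in the transgenic and 1236 and 1132 CPM in the vehicle libraries and 863 and 1049.8 against 518 and 571 CPM, in that order. An exception was mt-Co1, of cytochrome oxidase, at 6306 and 6664 CPM in the transgenic libraries against 6629 and 6397 CPM in the vehicle libraries, and mt-Co2 and mt-Atp8 overlapped too. The mitochondrial genes took 1.43% and 1.53% of counts in the transgenic and 1.18% and 1.14% in the vehicle libraries, and the part of RNA quality in this share was not tested. Of 39 nuclear subunits 13 had a positive and 26 a negative fold change. Without overlap 3 were higher (7.69%, against 17.9% of all genes tested) and 6 lower (15.4%, against 17.7%). Their median of -0.04, against -0.01 over all genes tested, ran from -0.07 without vehicle library 2 to 0.03 without vehicle library 1. Ndufv2 and Ndufa4, at log2 fold changes of -0.29 ± 0.14 and -0.35 ± 0.18, were the members with the smallest p.

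Immediate early genes, which serum, stress and tissue handling switch on within minutes, were mostly higher. Of 22 members 17 had a positive fold change. Without overlap 10 were higher (45.5%, against 17.9% of all genes tested) and 1 lower (4.55%, against 17.7%). Their median was 0.35 (0.27 without transgenic library 2 and 0.53 without transgenic library 1). Fos had 23.2 and 11.4 CPM in the transgenic tumours and 50.7 and 38.9 CPM in the vehicle tumours, Egr1 42.2 and 25.5 against 53.9 and 55.1 CPM, and Atf3, a stress-induced factor, 20.2 and 28.1 against 53.997 and 35.9 CPM. The vehicle libraries were above the transgenic ones for all 3. Fosb had 15.6 and 8.09 CPM in the transgenic and 72.1 and 14.9 CPM in the vehicle libraries, high in vehicle library 1 only. Jun had a log2 fold change of 0.35 ± 0.23 and Myc, which overlapped, 0.28 ± 0.21. The progesterone libraries had 18.5 and 20.7 CPM of Fos and 18.04 and 17.998 CPM of Egr1.

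Heat shock chaperones lay on both sides. Of 19 members 6 were higher and 5 lower without overlap. Hspa1a and Hspa1b, the stress-inducible HSP70 genes, had 11.8 and 9.82 CPM in the transgenic libraries against 37.6 and 32.01 CPM in the vehicle libraries and 26.4 and 31.3 against 69.5 and 78.8 CPM, in that order. These genes are near-identical copies and their separate counts are uncertain, but both were higher in both vehicle libraries. Their co-chaperones Dnajb1, Dnajb4 and Bag3 had log2 fold changes of 0.42 ± 0.18, 0.53 ± 0.21 and 0.30 ± 0.17, also without overlap. Cryab, a small heat shock protein, was the other higher member. Of the lower members, mostly constitutive chaperones, Hspa8 had a log2 fold change of -0.22 ± 0.16, Hsp90aa1 -0.29 ± 0.18, Hspa4 -0.33 ± 0.17, and the HSP90 co-chaperones Ahsa1 and Chordc1 -0.36 ± 0.16 and -0.32 ± 0.20.

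In other stress lists the shares of members without overlap were mostly near or below those over all genes tested. Of 28 genes of the unfolded protein and integrated stress response 4 were higher and 4 lower without overlap. The 4 lower members were the serine and one-carbon enzymes Phgdh, Psat1, Shmt2 and Mthfd2, at log2 fold changes of -0.68 ± 0.17, -0.33 ± 0.18, -0.44 ± 0.19 and -0.49 ± 0.18. Among the higher ones were Ddit3, the stress factor CHOP, at a log2 fold change of 0.75 ± 0.30, and Edem1, of protein degradation, at 0.43 ± 0.18. Of 19 targets of p53 15 had a positive fold change but only 2 lay higher without overlap, Gadd45a at 1.04 ± 0.36 and Mdm2 at 0.54 ± 0.24. Cdkn1a, the p21 inhibitor of the cell cycle, overlapped, at 308 and 173 CPM in the transgenic tumours and 337 and 251 CPM in the vehicle tumours. Of 20 antioxidant genes of the NRF2 pathway 5 were higher and 2 lower, among them Gclm, of glutathione synthesis, at a log2 fold change of -0.51 ± 0.17 and Txnip, a thioredoxin inhibitor, at 0.48 ± 0.21.

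Genes of cholesterol and fatty acid synthesis leaned higher in a way that rested on 1 library. Of 31 members 26 had a positive fold change, with a median of 0.35. Without overlap 10 lay higher (32.3%, against 17.9% of all genes tested). Without vehicle library 1 the median was 0.00, and without vehicle library 2 it was 0.54. Lss, lanosterol synthase, had 34.6 and 45.2 CPM in the transgenic and 85.1 and 46.2 CPM in the vehicle libraries. Vehicle library 1 was high and vehicle library 2 was close to the transgenic libraries. Scd2 and Scd1, desaturases of fatty acids, had 438 and 397 CPM in the transgenic libraries against 572 and 577 CPM in the vehicle libraries and 119.8 and 145 against 174 and 164 CPM, with both vehicle libraries higher.

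Iron genes followed no common direction. Of 24 members 5 were higher and 2 lower without overlap. Besides Scara5, Steap3, the ferric reductase of endosomes, had 30.1 and 28.4 CPM in the transgenic tumours and 56.98 and 40.9 CPM in the vehicle tumours, and Tfrc, the transferrin receptor, 129.5 and 191 against 107 and 73.4 CPM. Steap3 was higher and Tfrc lower in both vehicle libraries, with log2 fold changes of 0.74 ± 0.21 and -0.82 ± 0.25. Ftl1, a ferritin chain, had a log2 fold change of 0.16 ± 0.17. Slc11a1, a metal transporter of phagocytes, had a log2 fold change of -0.56 ± 0.31. Red blood cell transcripts were high in library 1 of both groups: Hba-a1, an alpha globin gene that shares reads with its copy, had 1190.4 and 26.2 CPM in the transgenic and 1070.1 and 126 CPM in the vehicle libraries.

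Matrix metalloproteinases, which cut matrix proteins, included some of the largest fold changes. Of 17 members 7 were higher (41.2%, against 17.9% of all genes tested) and 3 lower (17.6%, against 17.7%) without overlap. Their median of 0.74 ran from 0.24 without vehicle library 2 to 1.12 without transgenic library 1. Besides Mmp12, the other 4 that lay apart on chromosome 9 were Mmp1a, Mmp1b, Mmp3 and Mmp10, between chr9:7368239-7388047 (Mmp1b) and chr9:7502352-7510240 (Mmp10). Mmp3, stromelysin 1, had 1137 and 213 CPM in the transgenic libraries against 2089 and 2363 CPM in the vehicle libraries, and Mmp10, stromelysin 2, 21.6 and 10.6 against 36.6 and 97.5 CPM. Mmp1b had 3.04 and 1.35 CPM in the transgenic tumours and 23.8 and 6.15 CPM in the vehicle tumours. Transgenic library 2 was the lowest in these 3 genes, and the high vehicle library was library 1 for Mmp1b and library 2 for Mmp10. Their neighbours Mmp13 and Mmp8 overlapped, at 45.7 and 15.004 CPM in the transgenic and 29.7 and 98.7 CPM in the vehicle libraries and 5.93 and 2.02 against 4.25 and 2.7 CPM, as did the gelatinase Mmp9 at 39.7 and 12.9 against 20.1 and 97.5 CPM. Mmp12 and Mmp1b overlap on opposite strands, and no source read here states whether the counting used the strand. Mmp14, the membrane-type protease that activates others, had 948 and 701 CPM in the transgenic libraries against 977 and 1181 CPM in the vehicle libraries.

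Other proteases and matrix enzymes lay on both sides. Of 27 members 6 were higher and 4 lower without overlap. Plau, the urokinase plasminogen activator, had 579.9 and 359.9 CPM in the transgenic tumours and 934 and 635 CPM in the vehicle tumours, and its receptor Plaur 178 and 157 against 133 and 105 CPM. Plau was higher and Plaur lower in both vehicle libraries. Ctsl, cathepsin L, had 2294 and 1546 CPM in the transgenic and 3905 and 2902 CPM in the vehicle libraries, and Adam19, a membrane sheddase, and Loxl3, a lysyl oxidase, had log2 fold changes of 0.998 ± 0.30 and 0.72 ± 0.26. The metalloproteinase inhibitors differed among themselves: Timp1 had 45.8 and 39.7 CPM in the transgenic libraries against 38.5 and 34.5 CPM in the vehicle libraries, Timp2 579 and 629.7 against 636 and 685 CPM and Timp3 5.04 and 23.5 against 4.15 and 2.76 CPM. Timp1 and Timp3 were lower and Timp2 higher in both vehicle libraries.

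Structural matrix genes and their receptors leaned higher. Of 25 collagens 6 were higher (24%, against 17.9% of all genes tested) and 0 lower (0%, against 17.7%) without overlap. Their median of 0.22 ran from 0.15 without vehicle library 2 to 0.45 without transgenic library 1. Col18a1, the basement membrane collagen that holds endostatin, had 678 and 692 CPM in the transgenic tumours and 1021 and 922 CPM in the vehicle tumours, and Col6a3, of the beaded filaments, 577 and 321 against 638 and 1277 CPM. The fibrillar collagen Col3a1 overlapped, at 6169 and 1414 CPM in the transgenic and 5311 and 8606 CPM in the vehicle libraries. Of 29 integrins and laminins 10 were higher (34.5%) and 1 lower (3.45%) without overlap. Lamc1, the laminin gamma 1 chain, had 524 and 455 CPM in the transgenic libraries against 739 and 716 CPM in the vehicle libraries, and Itga2 and Itgb3, integrin subunits for collagen and vitronectin, had log2 fold changes of 1.20 ± 0.47 and 0.56 ± 0.20. The median of the integrins and laminins, 0.20, ran from 0.15 without vehicle library 2 to 0.46 without transgenic library 2.

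Of 21 matricellular genes, which signal from the matrix, 8 were higher (38.1%, against 17.9% of all genes tested) and 2 lower (9.52%, against 17.7%) without overlap. Their median of 0.37 ran from 0.20 without transgenic library 2 to 1.32 without transgenic library 1. Fn1, fibronectin, had 4133 and 1591 CPM in the transgenic tumours and 8713 and 5847 CPM in the vehicle tumours, and Spp1, osteopontin, 1863 and 868 against 4134 and 2039.7 CPM. Thbs2, thrombospondin 2, had 482 and 281 CPM in the transgenic and 553 and 851 CPM in the vehicle libraries, and Ccn1, a target of YAP, 129 and 85.1 against 243 and 156 CPM. In all 4 genes the groups did not overlap and transgenic library 2 was the lowest. Fibroblast markers were also lowest in that library: their summed level was 7950.3, 2156, 7082 and 11897 CPM in transgenic libraries 1 and 2 and vehicle libraries 1 and 2. Col3a1, given above, made up most of each sum. Averaged over the markers, log2 CPM differed less, at 4.71, 4.38, 4.53 and 4.89 in the same order. Of 17 fibroblast markers 4 were higher and 2 lower without overlap, among them Pdgfra at 177 and 103 CPM in the transgenic libraries against 234 and 321 CPM in the vehicle libraries and Dcn, decorin, at 664 and 102 against 789 and 971 CPM. The part of the fibroblast markers in the matrix values was not tested.

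Among growth factor genes few members stood apart. Of 12 genes of the insulin-like growth factor pathway 3 were higher and 1 lower without overlap. The higher ones were Igfbp4, Igfbp6 and Igf2bp2, with log2 fold changes of 0.69 ± 0.28, 0.48 ± 0.22 and 0.36 ± 0.15. Of 14 EGF family genes 1 was higher, the feedback inhibitor Errfi1 at a log2 fold change of 0.54 ± 0.34, and 2 were lower. Of 30 Wnt pathway genes 6 were higher and 6 lower, and besides Lrp5 the higher ones included Fzd5, a receptor, at a log2 fold change of 0.59 ± 0.26 and Dkk2, a secreted antagonist, at 0.64 ± 0.33. Of 31 genes of the TGF-beta family 7 were higher and 5 lower. Bmp2 had 9.15 and 17.3 CPM in the transgenic tumours and 2.92 and 6.68 CPM in the vehicle tumours, and Id1, a target of BMP signalling, 12.6 and 11.1 against 6.76 and 7.84 CPM. Both were lower in both vehicle libraries.

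Angiogenic genes showed both directions. Of 29 members 9 were higher (31%, against 17.9% of all genes tested) and 5 lower (17.2%, against 17.7%) without overlap. Angpt2, which destabilizes vessels, had 29.6 and 27.2 CPM in the transgenic and 39.7 and 51.7 CPM in the vehicle libraries, and Pgf, placental growth factor, 38.7 and 20.7 against 59.3 and 43.1 CPM. Angptl4, a lipase inhibitor that hypoxia and fatty acids induce, had 99.6 and 45.9 CPM in the transgenic libraries against 24.6 and 35.2 CPM in the vehicle libraries, and Aplnr, the apelin receptor of endothelial cells, 0.815 and 2.61 against 0.274 and 0.424 CPM. Angpt2 and Pgf were higher and Angptl4 and Aplnr lower in both vehicle libraries. Endothelial markers summed to similar levels, at 488, 512, 514 and 469 CPM in the order above. Within them Vwf, von Willebrand factor, had 27.7 and 29.2 CPM in the transgenic tumours and 51.5 and 56.7 CPM in the vehicle tumours. It was the 1 of 16 higher without overlap (6.25%, against 17.9% of all genes tested). Lower without overlap were 6 of 16 (37.5%, against 17.7%), among them Pecam1 at 78.05 and 99.5 against 72.9 and 62.7 CPM. Axon guidance genes had 5 higher and 2 lower of 44, among them Sema4c and Ntn1, netrin 1, at 379.6 and 405 CPM in the transgenic and 561 and 597 CPM in the vehicle libraries.

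Interferon-induced GTPases were lower in both vehicle libraries, and their size rested on transgenic library 2. These proteins attack intracellular microbes and are strongly induced by interferon gamma. Of 19 listed genes 9 passed the filter, all with a negative fold change and with a median of -1.61. Without overlap 8 were lower (88.9%, against 17.7% of all genes tested). Iigp1 had 12.4 and 49.8 CPM in the transgenic libraries against 2.4 and 2.65 CPM in the vehicle libraries, Gbp8 4.74 and 8.34 against 1.13 and 1.59 CPM, and Gbp2 25.9 and 89.1 against 16.3 and 13.9 CPM. Transgenic library 2 was the highest in each, and transgenic library 1 also lay above both vehicle libraries. Without transgenic library 2 the median was -0.77. Cxcl9, a chemokine induced by interferon gamma, had 2.56 and 35.7 CPM in the transgenic tumours and 0.274 and 0.583 CPM in the vehicle tumours, and Gbp5 2.3 and 15.9 against 1.3 and 0.954 CPM. The wider interferon list had 33 members and a median of -0.16. Without overlap 6 were lower (18.2%, against 17.7% of all genes tested) and 0 higher (0%, against 17.9%). Its median ran from -0.27 without vehicle library 1 to 0.05 without transgenic library 2.

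Among the 4 libraries compared, antigen presentation genes were high in transgenic library 2 alone. Of 9 MHC class II genes all 9 had a negative fold change, 4 without overlap (44.4%, against 17.7% of all genes tested). The median of -2.15 was -0.14 without transgenic library 2. H2-Aa, an MHC class II chain, had 6.26 and 54.999 CPM in the transgenic and 5.42 and 5.99 CPM in the vehicle libraries, Cd74, the invariant chain, 30.6 and 206 against 20.7 and 27.7 CPM, and Ciita, the master regulator of the class, 1.26 and 8.56 against 0.686 and 0.795 CPM. Transgenic library 1 lay above both vehicle libraries in all 3, by far less. The progesterone libraries, outside this comparison, also lay above both vehicle libraries, at 100.5 and 44.3 CPM of Cd74 and 24.6 and 15.3 CPM of H2-Aa. Of 21 MHC class I genes 3 were lower without overlap, and the median of -0.42 was 0.03 without that library and -0.87 without transgenic library 1. H2-K1, a classical class I gene, overlapped, at 120.1 and 336 CPM in the transgenic libraries against 139 and 167 CPM in the vehicle libraries. Transcripts of T cells were scarce, with a summed marker level of 5.04, 18.8, 3.12 and 3.39 CPM in transgenic 1 and 2 and vehicle 1 and 2. Cd3d, a chain of the T cell receptor complex, had 0.333 and 0.674 CPM in the transgenic tumours and 0.103 and 0.053 CPM in the vehicle tumours, with transgenic library 2 highest and vehicle values near the 0.0997 and 0.154 CPM that 3 counts amount to. Of the T cell markers that passed the filter, 8 of 11 were lower without overlap (72.7%, against 17.7% of all genes tested). The filter used all 6 libraries, so a scarce marker could pass through the libraries where it was high. This share therefore gives no result about T cells. None of the 15 listed was at 0 in both libraries of a group. The part of these cells in the interferon and MHC values was not tested.

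Class I genes with the smallest p showed the same library. H2-Q6, a nonclassical class I gene of a family of near-identical copies whose separate counts are uncertain, had 1.7 and 18.7 CPM in the transgenic and 1.41 and 1.43 CPM in the vehicle libraries. Psmb9, an interferon-induced subunit of the immunoproteasome, had 4.85 and 14.03 CPM in the transgenic libraries against 2.4 and 4.66 CPM in the vehicle libraries, and Tap1, of the peptide transporter, 12.9 and 43.1 against 11.9 and 14.4 CPM. Transgenic library 2 was the highest in each, and Tap1 overlapped. Of 21 Toll-like receptor and adaptor genes 2 were higher and 2 lower without overlap, among the lower Tlr2, which binds bacterial lipoproteins, at 18.4 and 24.5 CPM in the transgenic tumours and 14.6 and 15.5 CPM in the vehicle tumours. Of 10 genes of cytotoxic and NK cells 1 was higher and 2 were lower without overlap, and Nkg7, a granule protein of these cells, overlapped at 0.407 and 1.94 CPM in the transgenic and 0.137 and 0.424 CPM in the vehicle libraries. Of 11 dendritic cell genes 5 were lower (45.5%, against 17.7% of all genes tested) and 0 higher (0%, against 17.9%) without overlap. Of 7 B and plasma cell genes 3 were lower (42.9%) and 0 higher. Among these Igkc, an immunoglobulin light chain gene, had only 0.0343 and 0 CPM in the vehicle libraries. With so few members, these shares give no result about the cells. Siglech, of plasmacytoid dendritic cells, and Ms4a1, the B cell antigen CD20, had 0 counts in both vehicle libraries.

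Bone-resorbing cells express cathepsin K and tartrate-resistant acid phosphatase, and both genes were high in vehicle library 2 alone. Ctsk, cathepsin K, had 10.3 and 15.9 CPM in the transgenic libraries against 7.03 and 88.7 CPM in the vehicle libraries, and Acp5, the phosphatase, 9.37 and 12.4 against 4.84 and 93.2 CPM. In both genes vehicle library 1 lay below the transgenic libraries, so the groups overlapped. The progesterone libraries had 174 and 126 CPM of Ctsk and 133 and 57.1 CPM of Acp5. Of 15 osteoclast-type genes 3 were higher and 0 lower without overlap, Tnfsf11 among them, as given above. Proliferins, placental hormones of the prolactin family that some cultured mouse cells also make, followed neither group: Prl2c2 had 58.05 and 1.94 CPM in the transgenic tumours and 22.8 and 8.22 CPM in the vehicle tumours, and Prl2c3, a near-identical copy, 80.01 and 1.85 against 38.9 and 15.95 CPM, lowest in transgenic library 2.

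**Figure D3:**
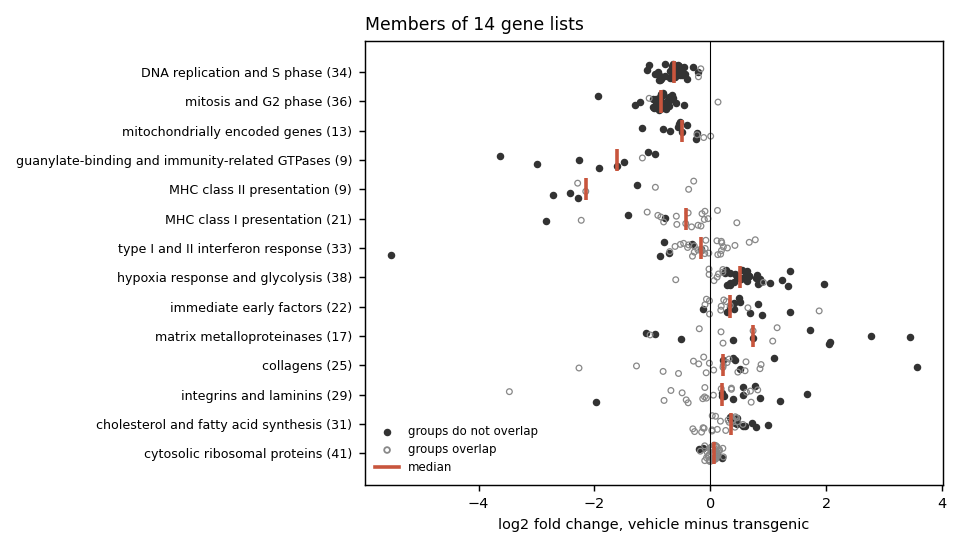
Log2 fold change (vehicle minus transgenic) of every member that passed the filter in 14 gene lists, with the number of members in brackets; filled points are genes whose groups do not overlap, open points genes that overlap, and red lines the medians. The replication and mitosis members sit to the left of 0 with few exceptions, the hypoxia members to the right, and of these 14 lists the GTPase and MHC class II lists have the lowest medians, -1.61 and -2.15.

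**Figure D4:**
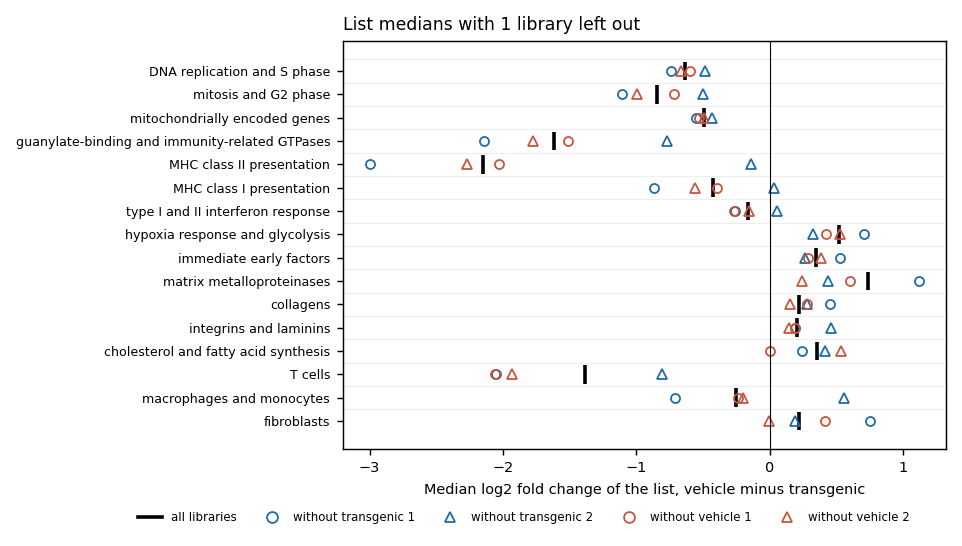
Median log2 fold change of 16 gene lists with all libraries (black line) and after leaving out 1 library (blue for transgenic, red for vehicle, circles for library 1, triangles for library 2). The replication, mitosis, mitochondrial and hypoxia medians kept their sign under each omission, and the MHC class II median moved from -2.15 to -0.14 without transgenic library 2.

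Among cytokines and immune regulators single genes stood apart. Of 36 chemokines and receptors 9 were lower (25%, against 17.7% of all genes tested) and 1 was higher (2.78%, against 17.9%) without overlap. The higher one was the eosinophil attractant Ccl11, at 6.07 and 2.11 CPM in the transgenic and 12.1 and 9.17 CPM in the vehicle libraries. Ccl4, which draws T cells and monocytes, had 12.04 and 4.17 CPM in the transgenic libraries against 3.09 and 2.92 CPM in the vehicle libraries, and Ccl9 had 74.7 and 95.5 against 70.5 and 57.03 CPM. Il1rn, the interleukin 1 receptor antagonist, had 52.8 and 35.7 CPM in the transgenic tumours and 18.6 and 22.05 CPM in the vehicle tumours and a log2 fold change of -1.12 ± 0.24. Tnfsf10, the death ligand TRAIL, had 1.33 and 2.91 CPM in the transgenic and 0.446 and 0.318 CPM in the vehicle libraries. Ccl4, Ccl9, Il1rn and Tnfsf10 were lower in both vehicle libraries. Cd274, the checkpoint ligand PD-L1, had 20.5 and 27.7 CPM in the transgenic libraries against 15.8 and 13.1 CPM in the vehicle libraries, lower without overlap, and Entpd1, the ectonucleotidase CD39, 32.6 and 59.1 against 106 and 69.1 CPM, higher without overlap.

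Markers of other host cells overlapped between the groups for the most part. No macrophage marker of 18 lay apart in either direction, with a summed level of 1532, 3302, 1966 and 2401 CPM, and the median of -0.25 was -0.71 without transgenic library 1 and turned to 0.56 without transgenic library 2. Lyz2, the lysozyme of macrophages and neutrophils, had 730.2 and 1523 CPM in the transgenic tumours and 806 and 1094 CPM in the vehicle tumours, and Adgre1, the F4/80 antigen, 15.6 and 58.4 against 23.7 and 30.3 CPM. Neutrophil markers summed to 287, 90.1, 213 and 212 CPM, lowest in transgenic library 2. S100a9, a calcium-binding protein of neutrophils, had 101 and 19.5 CPM in the transgenic and 70.8 and 75.9 CPM in the vehicle libraries, also lowest there. Mast cell markers had 3 of 12 higher and 0 lower without overlap, among them Tpsb2, a tryptase, at 2.0 and 3.92 CPM in the transgenic libraries against 5.11 and 5.67 CPM in the vehicle libraries. Their part in other values was not tested. Red blood cell markers summed to 2828, 65.6, 2504 and 299.9 CPM, skeletal muscle to 11.9, 17.95, 14.1 and 8.48 and keratinocytes to 7.56, 1.56, 13.9 and 6.68, each overlapping between the groups.

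**Figure D5:**
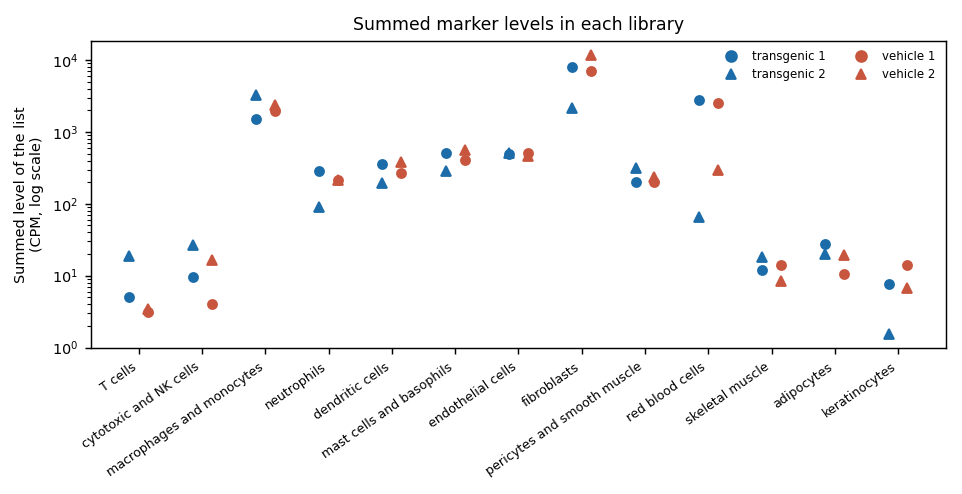
Summed CPM (log axis) of 13 lists of cell type markers in each transgenic (blue) and vehicle (red) library, circles for library 1 and triangles for library 2. T cell markers were lower in both vehicle libraries, red blood cell markers were high in library 1 of both groups, and fibroblast and neutrophil markers were lowest in transgenic library 2.

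The labelled tumour line was checked against markers of lung epithelium. Scgb1a1, a club cell marker, had 0 counts in all 4 libraries, and the surfactant genes Sftpc and Sftpd had at most 1 count in any of them. Krt8, a keratin of simple epithelia, had 135 and 393 CPM in the transgenic tumours and 180.4 and 209 CPM in the vehicle tumours, and Vim, vimentin of mesenchymal cells, 4223 and 3667 against 4257 and 4532 CPM. Krt18, the partner of Krt8, had 125 and 370.1 CPM in the transgenic and 212 and 256 CPM in the vehicle libraries, and Foxa2, a transcription factor of lung and gut epithelium, 3.33 and 8.13 against 1.54 and 2.23 CPM, lower in both vehicle libraries. Napsa, napsin A, a protease of type II pneumocytes, was present at 2.52 and 4.3 CPM in the transgenic libraries against 2.74 and 1.64 CPM in the vehicle libraries. The epithelial genes Cdh1, E-cadherin, and Muc1, a surface mucin, had 3.44 and 2.44 CPM in the transgenic tumours and 1.82 and 2.7 CPM in the vehicle tumours for Cdh1 and 3.59 and 1.43 against 2.71 and 2.49 CPM for Muc1. Of the 12 listed markers of the lung lineage, Scgb1a1, Sftpc and Sftpd were thus at or near 0, Epcam and Krt7 had at most 6 counts in any of the 4 libraries, and Foxa2, Napsa, Cdh1 and Muc1 passed the filter. Nkx2-1, Sftpa1 and Sftpb had no entry under these names among the genes counted, so they could not be analysed. Among 18 genes of epithelial to mesenchymal transition 2 were higher and 1 lower without overlap, Twist2 at a log2 fold change of 0.58 ± 0.27 being 1 of the higher and Vim the other.

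Several ABC transporter genes stood apart. Of 29 ABC transporters 11 were higher (37.9%, against 17.9% of all genes tested) and 2 lower (6.9%, against 17.7%) without overlap. The lower ones were Abcb1b, a drug efflux pump, at 64.8 and 75.02 CPM in the transgenic and 30.8 and 47.2 CPM in the vehicle libraries, and Abcc4, an exporter of nucleotides and prostaglandins, at 66.3 and 92.2 against 53.8 and 44.8 CPM. Abca7, a lipid transporter, had 32.9 and 49.8 CPM in the transgenic libraries against 69.3 and 65.4 CPM in the vehicle libraries and was higher. Of 15 clock genes 4 were higher (26.7%, against 17.9%) and 0 lower (0%, against 17.7%). With so few members, these shares give no result about the clock genes as a group. Their median of 0.23 ran from 0.02 without vehicle library 1 to 0.36 without transgenic library 1. Among the higher was Bhlhe40, a clock repressor that hypoxia induces. It had 121 and 74.4 CPM in the transgenic tumours and 223 and 152 CPM in the vehicle tumours. Clock, Cry1 and Per2 overlapped, at log2 fold changes of -0.18 ± 0.19, -0.01 ± 0.25 and 0.23 ± 0.59. Cytosolic ribosomal proteins served as a group with little difference, with 2 higher and 2 lower of 41 and a median of 0.07 that stayed between -0.08 and 0.21 when single libraries were left out.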

How the data were processed

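RNA of LLC1 tumours was sequenced, and gene counts were deposited for 6 libraries. The submitters' processing notes name HISAT2, HTSeq, DESeq and build GRCm38.p6. The deposited values are whole, unnormalized counts, per the file headers and values. Whether counting used strand is not given in the sources used here. Symbols and coordinates were matched by gene ID to GENCODE M21, with 19284 of 19288 IDs found. Counts were tested with edgeR 4.0.16 (R 4.3.3) after TMM scaling and filterByExpr. The quasi-likelihood test was run over the 6 libraries in 3 groups, with 3 residual degrees of freedom and Benjamini-Hochberg adjustment over 13632 genes. The fit was also run on simulated counts whose changes were larger than most list medians given here. That run therefore does not bear on changes of this size. CPM use TMM-scaled library sizes. Alternatives were DESeq2 1.42.0, limma-voom (limma 3.58.1), other scalings and filters, the 4 libraries alone, a replicate block, and leaving out each library. Without a replicate a lone library was assumed to vary like the other groups.

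The gene lists, members and tests were chosen with earlier results of these data known. Named genes were the 12 with the smallest p and the 8 with the largest fold change in each direction, with at least 5 CPM and no overlap, up to 4 of a list by smallest p with at least 1 CPM, and the hormone receptors. Some genes that this rule names are not reported here. Other genes were named after their values were seen. Promoter windows came from RefSeq.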

Additional observations from a re-analysis of the deposited data

How the results depend on the processing

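By edgeR no gene passed an adjusted p of 0.05 with all libraries, and the same count of 0 was found with DESeq2 size factors, upper-quartile scaling, the stricter filter, the 4 libraries alone and limma-voom. With no filter on low counts edgeR called 12 genes, 9 higher and 3 lower, and DESeq2 called 66, 30 higher and 36 lower; the cause was not tested. The unadjusted count at p under 0.05 was 759 with all libraries and from 272 without vehicle library 1 to 1863 without transgenic library 1. With the replicate number as a block, 0 genes were called (smallest adjusted p 0.257 by edgeR). Across genes, same-numbered libraries deviated from their group means with correlations of 0.08, -0.17 and -0.13. Whether they shared a batch or handling was not tested. The fibroblast median was 0.70 with at least 1 CPM in 2 libraries, which leaves fewer genes. When each library was left out in turn, list medians ran from -0.74 to -0.48 for replication genes, from -1.11 to -0.50 for mitosis genes, from 0.0039 to 0.54 for cholesterol and fatty acid genes, from 0.24 to 1.12 for metalloproteinase genes, from 0.15 to 0.45 for collagen genes, from -0.27 to 0.0538 for interferon genes, from -2.9950 to -0.14 for MHC class II genes, from -0.0064 to 0.75 for fibroblast genes. Single genes whose fold change took the other sign in another fit were few: Cry1 had 0.0194 with limma-voom and 0.0159 with the replicate block, Hba-a1 1.04 and 0.49, and Krt18 0.11 and 0.0538. Prl2c2 and Prl2c3 had 0.36 and 0.98 with limma-voom, Kif11 had -0.0183 with the block, and Insr and mt-Co1 had -0.0033 and -0.0107 with upper-quartile scaling. Leaving out each library in turn, log2 fold changes that changed sign ran as follows, the cause not tested: Acp5 -1.17 to 3.10, Adgre1 -1.11 to 0.79, Bmp7 -4.47 to 0.0851, Cdkn1a -0.0682 to 0.76, Clock -0.34 to 0.0072, Cry1 -0.31 to 0.36, Ctsk -0.90 to 2.76, Esr1 -0.95 to 2.21, Fkbp5 -0.57 to 0.0465, Gapdh -1.31 to 0.88, Ghr -0.009 to 1.12, Greb1 -3.12 to 0.64, H2-K1 -1.14 to 0.35, Hba-a1 -2.28 to 4.51, Igf1r -0.0339 to 0.14, Insr -0.14 to 0.18, Kif11 -1.11 to 0.78, Krt18 -0.66 to 0.90, Krt8 -1.01 to 0.53, Lama1 -4.66 to 1.87, Lyz2 -0.68 to 0.38, Mmp13 -0.0311 to 2.09, Mmp8 -0.76 to 0.78, Mmp9 -0.39 to 2.18, Muc1 -0.46 to 0.86, Nr3c2 -1.12 to 0.39, Paqr7 -0.0676 to 0.40, Paqr8 -0.63 to 0.0711, Per1 -0.84 to 0.44, Per2 -0.19 to 0.58, Pgrmc1 -0.0244 to 0.52, Pgrmc2 -0.15 to 0.10, Pold1 -0.37 to 0.0693, Prl2c2 -1.90 to 3.0021, Prl2c3 -1.54 to 3.88, S100a9 -0.46 to 1.91, Tap1 -1.71 to 0.0315, Thrb -0.39 to 1.39, Tsc22d3 -0.61 to 0.22, Vegfa -0.22 to 0.85, mt-Co1 -0.0331 to 0.0466. Precision is limited by 2 libraries a group and, below about 1 CPM, by a depth at which 3 counts amount to 0.0997 to 0.154 CPM; no fold is given for genes under that level in both groups.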

Other observations

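Genes that stood in no list were taken from those that DESeq2 called, after their values had been seen. Further genes of DNA replication and division were lower in both vehicle libraries: Exo1, an exonuclease of DNA repair, had 34.1 and 35.5 CPM in the transgenic and 17.6 and 20.6 CPM in the vehicle libraries, Dbf4, which activates the kinase that fires origins, 71.5 and 78.1 against 41.96 and 44.04 CPM, and Clspn, a fork checkpoint protein, 45.04 and 56.6 against 27.1 and 30.4 CPM. Mybl2, a transcription factor of cell cycle genes, had 69.9 and 97.5 CPM in the transgenic libraries against 45.5 and 47.01 CPM in the vehicle libraries, and Haspin, a kinase that marks mitotic histones, 18.9 and 22.6 against 8.47 and 9.91 CPM. H2afz, a histone variant gene, had 317 and 326 CPM in the transgenic tumours and 192 and 227 CPM in the vehicle tumours. The log2 fold changes of these 6 genes were -0.87 ± 0.21, -0.80 ± 0.19, -0.82 ± 0.19, -0.86 ± 0.20, -1.18 ± 0.26 and -0.62 ± 0.16, and edgeR called none of them. Adk, adenosine kinase, was lower as well, at 68.8 and 67.1 CPM in the transgenic and 41.8 and 40.2 CPM in the vehicle libraries, with a log2 fold change of -0.73 ± 0.17.

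On the higher side, Hmcn1, the extracellular matrix protein hemicentin 1, had 3.52 and 3.88 CPM in the transgenic libraries against 15.03 and 11.02 CPM in the vehicle libraries, and Col24a1, a fibrillar collagen, 4.59 and 3.75 against 12.01 and 10.3 CPM. Kdm5b, a histone H3 lysine 4 demethylase, had 61.7 and 54.7 CPM in the transgenic tumours and 101 and 92.3 CPM in the vehicle tumours, Lrig1, a negative regulator of growth factor receptors, 380.1 and 307 against 546 and 581 CPM, and St8sia1, the GD3 ganglioside synthase, 5.96 and 5.02 against 18.2 and 16.1 CPM. Both vehicle libraries were above both transgenic libraries in each of these 5 genes. Their log2 fold changes were 1.82 ± 0.38, 1.42 ± 0.31, 0.73 ± 0.15, 0.71 ± 0.17 and 1.64 ± 0.42. The progesterone libraries had 7.69 and 13.3 CPM of Hmcn1 and 5.41 and 11.96 CPM of St8sia1. Marco, a scavenger receptor of macrophages, had 0.37 and 3.62 CPM in the transgenic and 0.0686 and 0.053 CPM in the vehicle libraries, with both vehicle values under 3 counts, and 2.47 and 4.92 CPM in the progesterone libraries.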
